A study of Mus musculus with 12 samples.

Results

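The genes of DNA double-strand break repair were followed across 4 groups of mouse embryonic stem cells. The set holds 39 genes of homologous recombination, end joining, break signalling and the resolution of joined DNA molecules, chosen by symbol from these pathways and without the MRE11-RAD50-NBN complex. All 39 were matched to 1 of the 56691 mouse gene IDs in the count tables, and all 39 passed the low-count filter that left 13230 genes for testing. The cells were the R1 line, male and of the 129/Sv background, so that all groups share 1 line. The primed group was taken at day 0 from gelatin-coated plates in serum with LIF, with no treatment. The other groups had spent 6 days in 2i, either alone or with 25 or 50 µM of an inhibitor of MRE11, which the labels do not name. 2i is a pair of inhibitors of the kinases MEK and GSK3 that holds mouse embryonic stem cells in a naive state. No group was kept in serum with LIF to day 6, so the effect of 2i and that of time in culture cannot be told apart. Each group had 3 libraries. The title of the series places the comparisons in the question of how MRE11 and DNA replication bear on the passage from primed to naive cells.

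A broken chromosome is first marked by the kinase ATM, which phosphorylates the histone variant H2AX, and by MDC1, RNF8 and RNF168, which build a ubiquitin signal around the break. 53BP1, RIF1 and MAD2L2 then protect the ends and favour end joining by Ku, DNA-PKcs and ligase 4, whereas BRCA1 and CtIP promote resection of the ends by nucleases such as MRE11 and EXO1. Resected ends are repaired by homologous recombination, with BRCA2, the BCDX2 and CX3 complexes and RAD54, or by DNA polymerase theta and ligase 3, and the joined molecules are released by helicases or cut by MUS81-EME1, SLX4 and GEN1. Embryonic stem cells spend much of their cycle in S phase and are known for a large share of repair by homologous recombination.

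Libraries were made with a QuantSeq 3′ kit, which primes on poly(A) and reads the ends of transcripts, so that values are counts of 3′ ends with no dependence on transcript length by design. Levels are given as CPM, that is, counts scaled to library size by the TMM method, and as mean ± SD over n = 3 libraries. Library totals ran from 5894561 to 7060126 counts. Whether replicates were grown apart is not stated in the labels, and a p-value here reflects only how far these libraries differ, which may be technical variation. The libraries numbered 1 stood apart in every group. The chi-square per degree of freedom between replicates was 8.82 to 11.7 for pairs with a library numbered 1 and 2.48 to 6.64 for the others. The number of genes with a count was 19830 ± 180 in primed libraries, 19570 ± 252 in 2i alone, 19170 ± 251 with 25 µM and 18800 ± 280 with 50 µM. Pluripotency markers were present in every library, with summed levels of 10 genes from 4410 to 5860 CPM. The summed level of 10 fibroblast and feeder cell markers ran from 32.8 to 74.3 CPM in primed libraries, 13.1 to 17.8 in 2i, 6.59 to 7.81 at 25 µM and 1.94 to 4.53 at 50 µM, with 4, 3, 4 and 5 of the 10 genes at 0 in the respective group. Fap was at 0 in every group and Postn, Dcn and Lum were at 0.153 CPM or less in group means, whereas Col1a1 averaged 25.5, 7.15, 1.78 and 0.762 CPM in the 4 groups. Endoderm markers, 6 genes, summed to 4.03 to 14.5 CPM. The part of such cells in the results below was not tested. In bulk RNA, fewer cells of a type and less RNA per cell cannot be told apart.

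The break repair genes were expressed in all 4 groups, and the group means of each gene differed by less than 2-fold. Their mean levels over the 12 libraries ran from 3.92 CPM (Xrcc4, which holds ligase 4 in place) to 825 CPM (Rif1, which protects broken ends), with a median of 38.8. The number of counts behind a gene ran from 297 for Xrcc4 to 63066 for Rif1. The ratio of the highest to the lowest group mean had a median of 1.3, was under 1.5 in 33 of 39 genes and reached 1.99 at most, in Dclre1c. The highest of the 4 group means fell in primed cells for 7 genes and in 2i alone for 7. It fell at 25 µM for 4 and at 50 µM for 21. The matching ratios and shares over all genes were not computed. The coefficient of variation between the 3 libraries, averaged over groups, had a median of 12% and ran from 3.26% to 31.7%. The libraries numbered 1 were the highest of their group in all 4 groups for H2afx, Rif1, Atm, Brca2, Rbbp8 and Exo1, and the lowest in all 4 for Bard1, Rad51c, Rad54b, Mdc1, Trp53bp1 and Lig3.

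**Figure D1:**
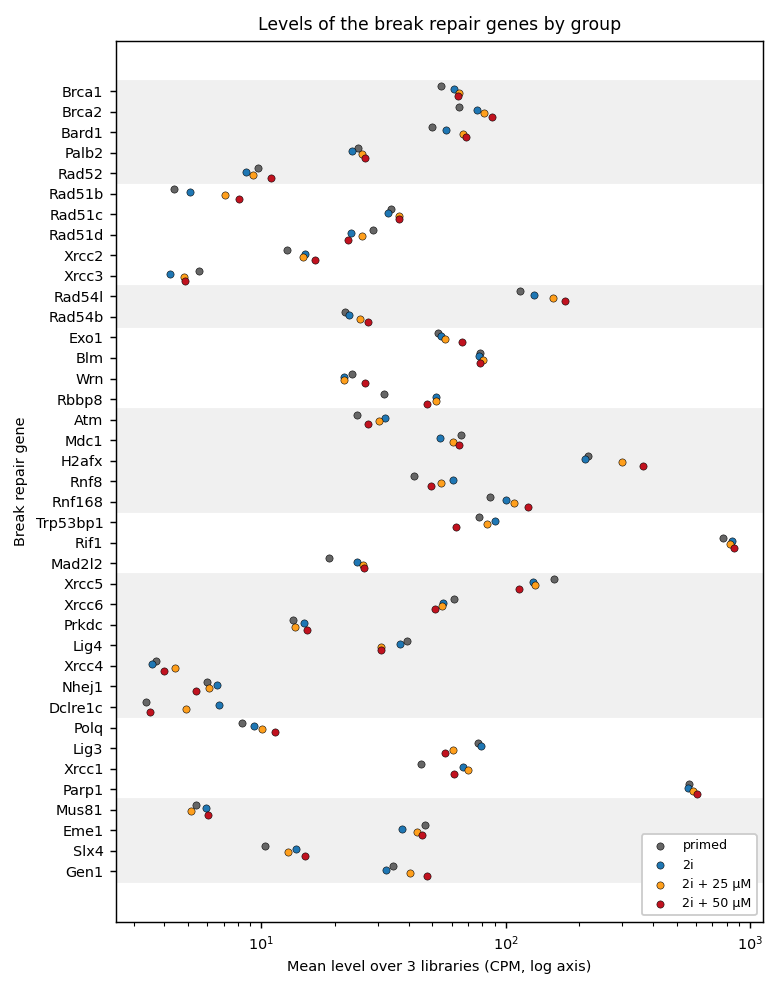
Mean level of each of the 39 break repair genes in each group, in CPM on a log axis, as 1 point per group (n = 3 libraries) and with genes ordered by role. The 4 points of a gene lie close together relative to the spread between genes, and in no gene do the highest and lowest reach a ratio of 2.

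Calls were made at an adjusted p below 0.05 with the quasi-likelihood test of edgeR, adjusted by Benjamini-Hochberg over the 13230 genes. In 2i against primed cells 7 of the 39 genes were called (17.9%), beside 40.4% of all genes tested. At 25 µM against 2i alone 1 of 39 was called (2.56%), beside 0.937%. At 50 µM against 2i alone 10 of 39 were called (25.6%), beside 15.1%. At 50 against 25 µM the count was 0, beside 1.16%. In the same order, the libraries of the groups compared lay fully apart in 28.2%, 20.5%, 35.9% and 12.8% of the 39 genes. For all genes these shares were 50.4%, 19.5%, 32.4% and 16.7%. The median size of the log2 fold change, taken without its sign, was 0.17, 0.12, 0.24 and 0.16 for the 39 genes in these comparisons and 0.34, 0.15, 0.23 and 0.15 for all genes. Over the 4 comparisons, 15 of the 39 genes were called at least once by this fit and 24 were called in none. It did not pair the libraries by replicate number. With replicate numbers as a block, the share of the 39 genes called was 35.9%, 7.69%, 30.8% and 5.13% in the same order. That of all genes was 47.6%, 4.74%, 24.5% and 4.1%. The 2 comparisons of inhibitor with 2i alone share the 3 libraries of 2i alone, and the values of 2i also enter the comparison with primed cells.

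**Figure D2:**
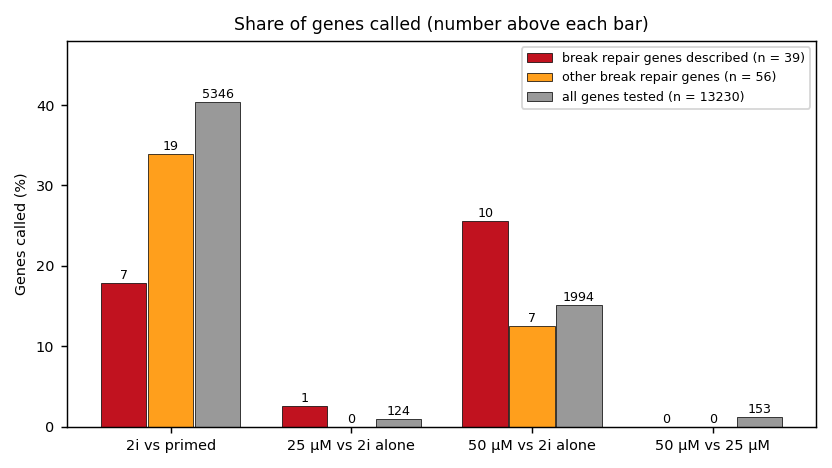
Percent of genes called (edgeR adjusted p below 0.05) in each comparison among the 39 break repair genes, among 56 other break repair genes and among all 13230 genes tested, with the number of calls above each bar. The 39 genes lie below all genes in 2i against primed (7 genes, 17.9%, beside 40.4%) and above them at 50 µM against 2i alone (10 genes, 25.6%, beside 15.1%).

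**Figure D3:**
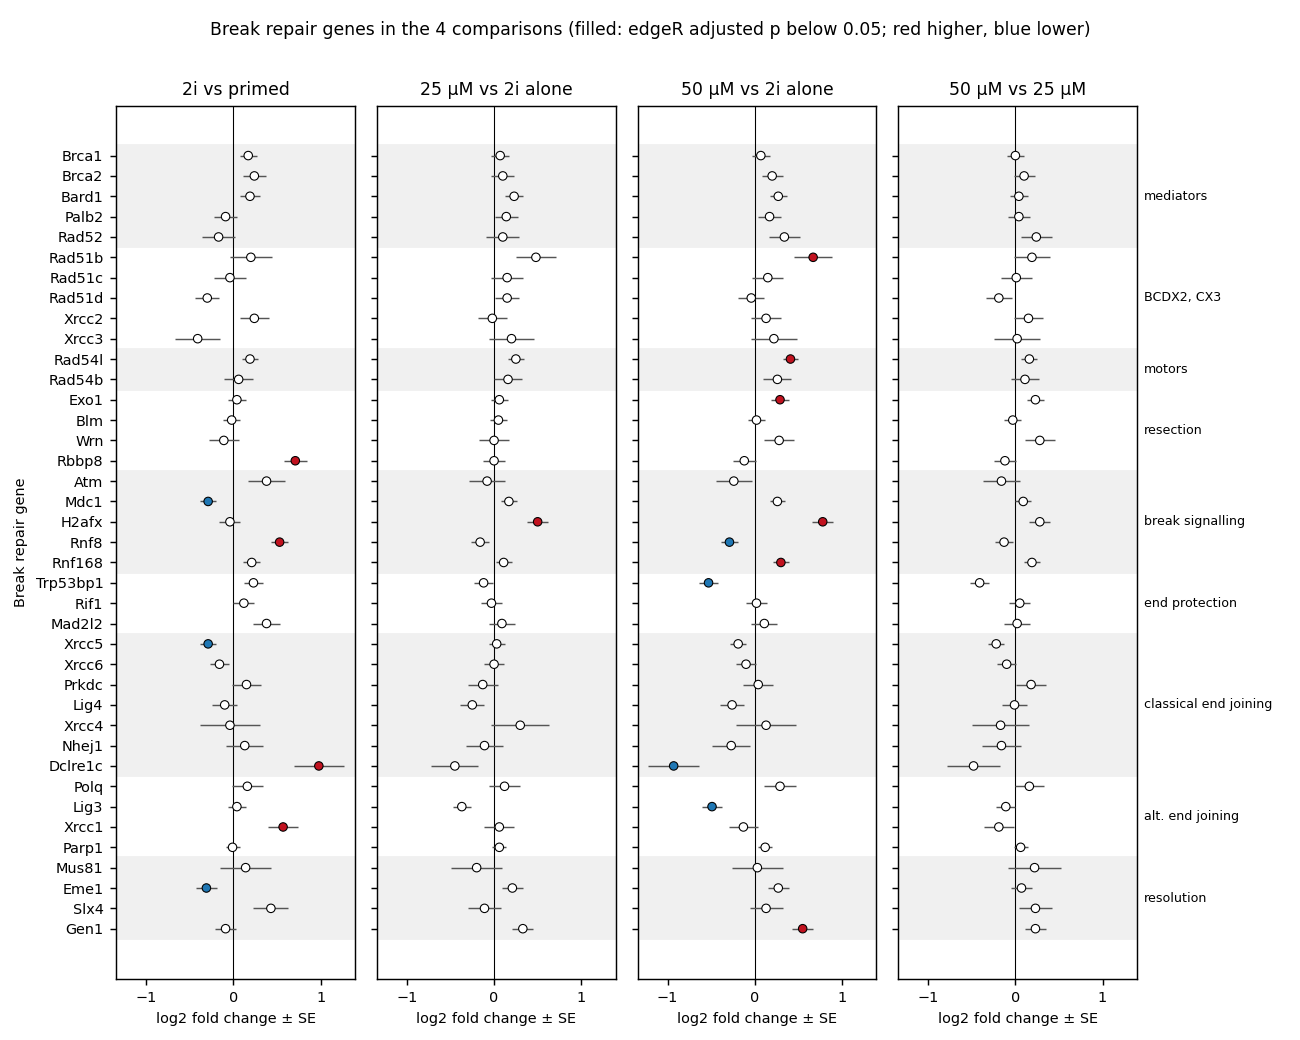
Log2 fold change ± SE (horizontal bars) of each break repair gene in the 4 comparisons, by role, with genes called higher in red, called lower in blue and not called in white. Most points lie near 0, and no called gene has a log2 fold change beyond 0.98 in either direction.

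After 6 days of 2i, 4 break repair genes rose (Rbbp8, Rnf8, Dclre1c and Xrcc1) and 3 fell (Mdc1, Xrcc5 and Eme1). Of all genes tested, 20% were called higher and 20.4% lower. The rises included the cofactor of end resection, a ubiquitin ligase of break signalling, the end-processing nuclease Artemis and the scaffold of ligase 3. The median log2 fold change of the 39 genes was 0.12, beside −0.01 for all genes. Of the 39 values, 23 were above 0, beside 6524 of 13230 for all genes. A fit with replicate numbers as a block called 14 of the 39 (35.9%), 10 higher and 4 lower, beside 47.6% of all genes tested. It added Brca2, Rad54l, Atm, Trp53bp1, Rnf168 and Mad2l2 to the higher genes and Rad51d to the lower. Leaving out single libraries also brought calls for Brca2 (adjusted p = 0.0305 without primed replicate 1 and 0.046 without 2i replicate 2), Atm (0.0463 without primed replicate 1), Mad2l2 (0.0251 and 0.0302 without replicate 2 of primed and of 2i), Trp53bp1 (0.0288 without 2i replicate 1) and Rad51d (0.0419 without 2i replicate 2). Without 2i replicate 3 the count of calls was 4, 3 higher and 1 lower.

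Among the genes of resection, Rbbp8 (ENSMUSG00000041238) encodes CtIP, the cofactor of MRE11 in the first step of resection. It measured 37, 29.1 and 29.3 CPM in primed replicates 1 to 3 and 61.1, 47.4 and 47.4 CPM in 2i. Every 2i library was above every primed library, and replicate 1 was the highest of both groups. Its log2 fold change was 0.71 ± 0.13 (1.63-fold, edgeR adjusted p = 0.000171). This value ran from 0.59 to 0.83 over 12 alternative fits, all of which kept the call. Rbbp8 shares 402 exonic bases with AC090479.2 on the opposite strand, the level of which was not examined here. The sources used here do not give the strand setting of the counting, so the counts of Rbbp8 are uncertain. With inhibitor, Rbbp8 stayed near its level in 2i, at 51.9 ± 6.54 CPM for 25 µM and 47.8 ± 4.76 CPM for 50 µM, with log2 fold changes of 0 ± 0.13 and −0.12 ± 0.13 against 2i alone. The other genes of resection and unwinding, Exo1, Blm and Wrn, were not called in 2i and differed from primed by −0.11 to 0.04 on the log2 scale.

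In break signalling, Rnf8 (ENSMUSG00000090083, chr17:29614790-29644991) encodes the ligase that first ubiquitinates chromatin at a break. Its level was 44, 40.3 and 41.6 CPM in primed cells and 57.1, 66 and 59 CPM in 2i, with no overlap between groups. On the log2 scale the difference was 0.53 ± 0.10 (edgeR adjusted p = 0.000182), and all 12 alternative fits kept the call. Rnf8 shares 1542 exonic bases with Gm28043, a gene model on the same strand, which had 2 counts in all libraries. The sources used here do not state how reads in shared bases were counted, so the counts of Rnf8 are uncertain. Mdc1 (ENSMUSG00000061607, chr17:35841515-35859670), the adaptor that binds phosphorylated H2AX, fell in 2i. It measured 65, 65.6 and 67 CPM in primed cells and 52.2, 53.2 and 56.5 CPM in 2i, so that the groups were apart by more than their spread. Between the groups the log2 fold change was −0.29 ± 0.09 (edgeR adjusted p = 0.0146). The call was lost when 2i replicate 1 (adjusted p = 0.0642), 2i replicate 2 (0.0532) or all libraries numbered 1 (0.0632) were left out, and without the low-count filter (0.071). H2afx, the histone that ATM phosphorylates, measured 217 ± 11.7 CPM in primed cells and 211 ± 24.8 CPM in 2i and was not called. Atm, the kinase at the head of the pathway, measured 31.1, 18.2 and 24.5 CPM in primed cells and 38.4, 24.9 and 33.1 CPM in 2i. The groups overlapped while each 2i library was above the primed library of the same number. Atm had a log2 fold change of 0.38 ± 0.21 (edgeR adjusted p = 0.175, and 0.00811 with the replicate block).

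In classical end joining, Dclre1c (ENSMUSG00000026648, chr2:3424131-3464130) encodes Artemis, the nuclease that trims ends before ligation. It was near the low end of the measured range, with 356 counts in all. It gave 4.82, 1.85 and 3.43 CPM in primed cells and 7.98, 6.78 and 5.32 CPM in 2i. The lowest 2i library was just above the highest primed library. The fitted log2 fold change was 0.98 ± 0.29 (edgeR adjusted p = 0.00972). Without primed replicate 2, the lowest library, it was 0.70 (adjusted p = 0.0676). Dclre1c shares 357 exonic bases with Suv39h2 on the opposite strand, and its counts are uncertain without the strand setting. Suv39h2 was called lower in 2i (−0.31 ± 0.12, edgeR adjusted p = 0.0428). Xrcc5 (ENSMUSG00000026187, chr1:72307421-72394952) encodes Ku80, which with Ku70 encircles DNA ends. It fell from 150, 157 and 167 CPM in primed cells to 139, 126 and 123 CPM in 2i, with no overlap. The log2 fold change was −0.29 ± 0.09 (edgeR adjusted p = 0.0089), and the call was lost when replicate 3 of either group was left out (adjusted p = 0.0521 for primed and 0.054 for 2i). Xrcc6, which encodes Ku70, measured 61.6 ± 4.48 CPM in primed cells and 55.1 ± 2.61 CPM in 2i, with a log2 fold change of −0.16 ± 0.11 (edgeR adjusted p = 0.246).

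Xrcc1 (ENSMUSG00000051768, chr7:24546289-24573440), the scaffold that carries ligase 3 to single-strand breaks and into alternative end joining, measured 34.8, 44.9 and 55.5 CPM in primed cells and 62.8, 59.2 and 79.2 CPM in 2i. The groups did not overlap, although the spread within each was wide, and replicate 3 was the highest of both groups. It rose by 0.57 ± 0.17 on the log2 scale (edgeR adjusted p = 0.0134). This value was 0.42 without primed replicate 1 (adjusted p = 0.0583) and 0.44 without 2i replicate 3 (adjusted p = 0.0711). Lig3 itself was at 76.8 ± 5.12 CPM in primed cells and 78.9 ± 4.57 CPM in 2i. Eme1 (ENSMUSG00000039055, chr11:94644996-94653964), the partner that makes MUS81 an active nuclease on branched DNA, fell from 44.1, 50.4 and 44.9 CPM in primed cells to 40.5, 33 and 39.2 CPM in 2i. No 2i library reached the lowest primed library. On the log2 scale the difference was −0.31 ± 0.12 (edgeR adjusted p = 0.0429), and 7 of 12 alternative fits lost the call, with adjusted p = 0.17 and 0.0629 when primed replicates 2 and 3 were left out and 0.219 and 0.0646 when 2i replicates 2 and 3 were. The 3′ end of Eme1 overlaps Lrrc59 on the opposite strand, by 221 exonic bases, and the sources used here do not give the strand setting of the counting, so its counts are uncertain. Lrrc59 differed by 0.06 ± 0.08 on the log2 scale and was not called.

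**Figure D4:**
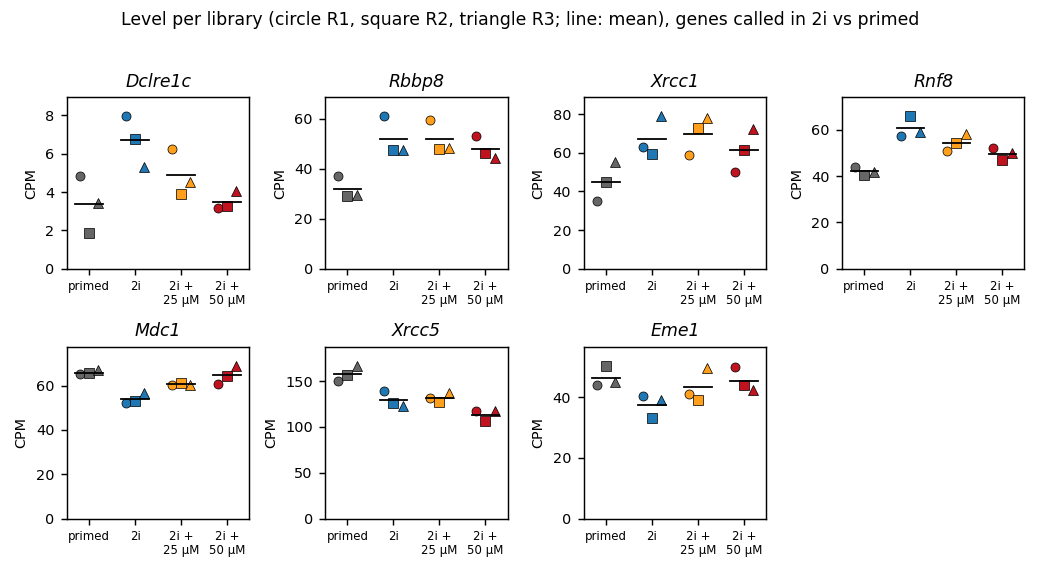
Level in CPM of the 7 break repair genes called in 2i against primed, in each of the 12 libraries (circle, square and triangle for replicates 1, 2 and 3; the line is the group mean). For each gene the 3 primed points (grey) and the 3 2i points (blue) lie fully apart, and the inhibitor groups are shown beside them. Primed and 2i libraries lay apart in this way in 28.2% of the 39 genes, beside 50.4% of all genes tested.

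At 25 µM of inhibitor in 2i, 1 of the 39 genes was called against 2i alone, H2afx (ENSMUSG00000049932, chr9:44334694-44336077), which encodes the histone variant H2AX. Of all genes tested, 0.454% were called higher and 0.484% lower at this dose. H2afx measured 228, 223 and 182 CPM in 2i alone and 358, 284 and 255 CPM at 25 µM. All 25 µM libraries were above all libraries of 2i alone, and in both groups replicate 1 was the highest and replicate 3 the lowest. Between the groups the log2 fold change was 0.50 ± 0.12 (1.41-fold, edgeR adjusted p = 0.0443, and 2.85e-05 with the replicate block). The call was lost without 2i replicate 1 (adjusted p = 0.0551), 2i replicate 2 (0.107), 2i replicate 3 (0.222), 25 µM replicate 1 (0.199) or 25 µM replicate 2 (0.099), and without all libraries numbered 1 (0.0603). With the replicate block 3 of the 39 genes were called (7.69%), beside 4.74% of all genes, as Rad54l rose (0.25, adjusted p = 0.0373) and Lig3 fell (−0.37, adjusted p = 0.00583). The other 36 genes were called by neither fit, and their values are plotted with the fold changes.

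At 50 µM of inhibitor in 2i, 6 break repair genes were higher than in 2i alone (H2afx, Rad54l, Gen1, Rad51b, Exo1 and Rnf168) and 4 were lower (Trp53bp1, Lig3, Dclre1c and Rnf8). Of all genes tested, 7.01% were called higher and 8.07% lower. The higher genes included the histone H2AX, a motor of strand exchange, a subunit of the BCDX2 complex, a resection nuclease and a junction nuclease, and the lower genes a protector of ends, an end-joining nuclease and a ligase. The median log2 fold change of the 39 genes was 0.13, beside 0.01 for all genes. Of the 39 values, 27 were above 0, beside 6771 of 13230 for all genes. H2afx, Rad54l, Gen1, Trp53bp1 and Lig3 kept their calls in all 12 alternative fits, and each of the other 5 lost its call in 5 to 10 of them. With the replicate block 12 of the 39 were called (30.8%), 8 higher and 4 lower, beside 24.5% of all genes, which added Bard1 and Mdc1 to the higher genes. By the scaling of DESeq2 in edgeR, 4 genes were called higher and 4 lower, and the test of DESeq2 called 3 higher and 3 lower. Without the libraries numbered 1, the counts were 3 higher and 4 lower. With 1 library left out, the count of calls was 5 without 2i replicate 2 or 50 µM replicate 1 and 6 without 2i replicate 1 or 50 µM replicate 3.

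**Figure D5:**
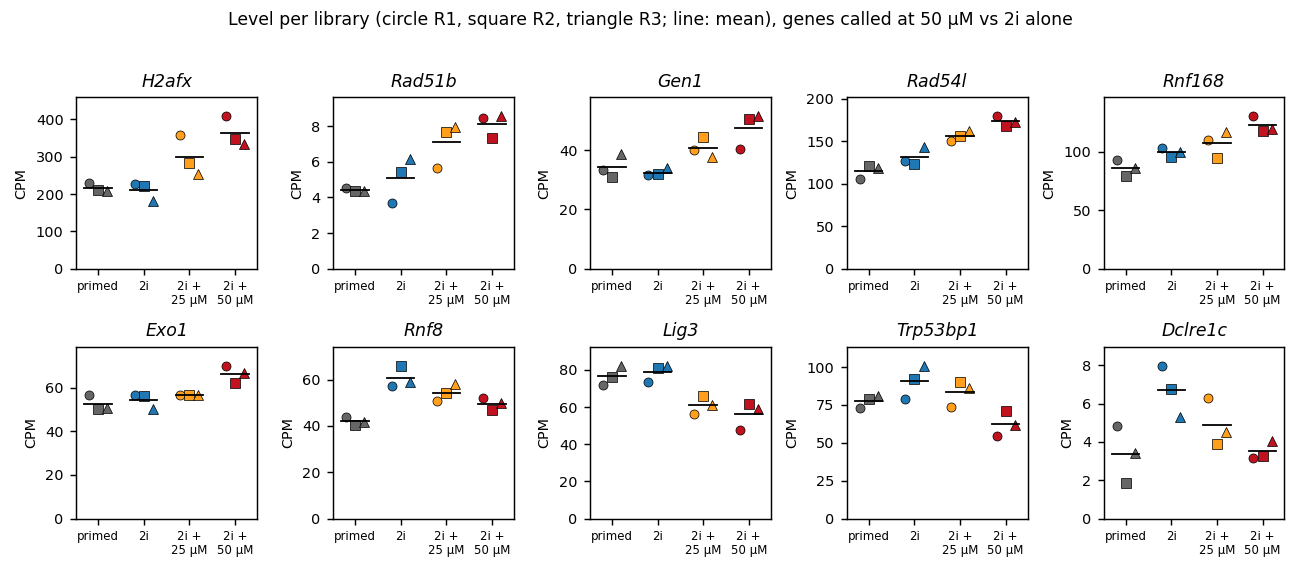
Level in CPM of the 10 break repair genes called at 50 µM against 2i alone, in each of the 12 libraries (circle, square and triangle for replicates 1, 2 and 3; the line is the group mean). For each gene the 3 points of 2i alone (blue) and the 3 points at 50 µM (red) lie fully apart. These groups lay apart in 35.9% of the 39 genes, beside 32.4% of all genes tested. The mean at 25 µM (orange) lies between the means of 2i alone and 50 µM in all 10. The genes were chosen for a difference between 2i alone and 50 µM, and that choice favours this order. The matching share of all genes called at 50 µM was not computed, so no dose response is read from this order. Between the doses, 0 of the 39 genes were called by edgeR without the replicate block and 2 with it.

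H2afx had the largest rise of the 39 genes at this dose. It measured 410, 349 and 333 CPM at 50 µM, beside 228, 223 and 182 CPM in 2i alone. The lowest library at 50 µM was well above the highest of 2i alone. The fitted log2 fold change was 0.78 ± 0.12 (1.72-fold, edgeR adjusted p = 0.000152), and it ran from 0.67 to 0.82 over the 12 alternative fits. H2afx shares 141 exonic bases with Gm44335 on the opposite strand, the level of which was not examined here. Its counts are uncertain without the strand setting. H2afx transcripts are known to occur in a polyadenylated form and in a form that ends in a histone stem-loop, and libraries primed on poly(A) take the polyadenylated form. In the same branch, Rnf168 (ENSMUSG00000014074, chr16:32277459-32301434), the ligase that extends the ubiquitin signal of RNF8, measured 103, 95.7 and 100 CPM in 2i alone and 131, 118 and 120 CPM at 50 µM. The groups did not overlap. The log2 fold change was 0.30 ± 0.09 (edgeR adjusted p = 0.0361). The call was lost without any 1 of the 6 libraries other than 50 µM replicate 2, at adjusted p = 0.0755 (2i replicate 1), 0.133 (2i replicate 2), 0.0891 (2i replicate 3), 0.178 (50 µM replicate 1) and 0.0907 (50 µM replicate 3), and DESeq2 gave 0.0556. Rnf8 measured 52, 46.8 and 50 CPM at 50 µM, all below the lowest library of 2i alone at 57.1 CPM and all above the highest primed library at 44 CPM. Its log2 fold change was −0.29 ± 0.10 (edgeR adjusted p = 0.0496). This call too was lost without any 1 of the libraries but 2i replicate 1, at adjusted p = 0.207 (2i replicate 2), 0.0902 (2i replicate 3), 0.0542 (50 µM replicate 1), 0.162 (50 µM replicate 2) and 0.0733 (50 µM replicate 3), and DESeq2 gave 0.051. Mdc1, lower in 2i than in primed cells, was at 64.6 ± 4.18 CPM at 50 µM, with a log2 fold change of 0.26 ± 0.09 against 2i alone (edgeR adjusted p = 0.0567, and 0.0213 with the replicate block).

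Among recombination genes, Rad54l (ENSMUSG00000028702, chr4:116094264-116123690) encodes RAD54, a motor that drives strand exchange. It measured 127, 123 and 143 CPM in 2i alone and 180, 168 and 173 CPM at 50 µM, with 150, 156 and 162 CPM at 25 µM. The 3 groups did not overlap, and all 2i libraries were above the primed libraries, at 105, 121 and 118 CPM. Its log2 fold change at 50 µM was 0.41 ± 0.09 (1.33-fold, edgeR adjusted p = 0.00306). Rad54l overlaps Lrrc41 on the opposite strand, by 1184 exonic bases, and its counts are uncertain without the strand setting. Lrrc41 gave 6.06 ± 0.402 CPM in 2i alone and 6.51 ± 1.68 CPM at 50 µM. Rad51b (ENSMUSG00000059060, chr12:79297282-79814690), a subunit of the BCDX2 complex of recombination, had 471 counts in all. It measured 3.69, 5.45 and 6.13 CPM in 2i alone and 8.46, 7.31 and 8.58 CPM at 50 µM. The highest library of 2i alone was below the lowest at 50 µM. On the log2 scale the difference was 0.67 ± 0.22 (edgeR adjusted p = 0.046), and 10 of 12 alternative fits lost the call. Without single libraries, adjusted p was 0.219 (2i replicate 1), 0.0882 (2i replicate 2), 0.127 (50 µM replicate 1), 0.0546 (50 µM replicate 2) and 0.142 (50 µM replicate 3), and DESeq2 gave 0.0974. None of the other genes of the BCDX2 and CX3 complexes was called, with log2 fold changes of −0.04 ± 0.15 (Rad51d), 0.13 ± 0.17 (Xrcc2), 0.15 ± 0.18 (Rad51c) and 0.22 ± 0.26 (Xrcc3).

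Exo1 (ENSMUSG00000039748, chr1:175880581-175913489), a nuclease of long-range resection, measured 56.5, 56 and 50 CPM in 2i alone and 70.1, 62.2 and 66.5 CPM at 50 µM. The 3 libraries at 25 µM lay just above those of 2i alone, at 56.8, 56.6 and 56.5 CPM. Between the groups the log2 fold change at 50 µM was 0.29 ± 0.10 (edgeR adjusted p = 0.0445), and 10 of 12 alternative fits lost the call. Adjusted p was 0.0877, 0.0865 and 0.17 without 2i replicates 1, 2 and 3, 0.2 without 50 µM replicate 1 and 0.14 without 50 µM replicate 3. Gen1 (ENSMUSG00000051235, chr12:11238920-11265801), a nuclease that cuts Holliday junctions, measured 31.5, 31.8 and 34 CPM in 2i alone and 40.5, 50.4 and 51.6 CPM at 50 µM. It was also higher in each 25 µM library, at 40, 44.4 and 37.6 CPM, than in any library of 2i alone. The fitted log2 fold change at 50 µM was 0.55 ± 0.12 (1.47-fold, edgeR adjusted p = 0.00333), and that at 25 µM was 0.33 ± 0.12 (edgeR adjusted p = 0.238). The other junction nucleases were not called at 50 µM, with 0.03 ± 0.29 for Mus81, 0.27 ± 0.12 for Eme1 and 0.13 ± 0.19 for Slx4.

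Trp53bp1 (ENSMUSG00000043909, chr2:121193281-121271407) encodes 53BP1, which shields broken ends from resection. It measured 79.1, 92.4 and 101 CPM in 2i alone, 74, 90.5 and 86.1 CPM at 25 µM and 54.5, 71.3 and 61.8 CPM at 50 µM. All 50 µM libraries were below all libraries of the other 6-day groups, and replicate 1 was the lowest in each of these groups. The log2 fold change against 2i alone was −0.53 ± 0.11 (1.45-fold lower, edgeR adjusted p = 0.00287), and it ran from −0.65 to −0.45 over the 12 alternative fits. Trp53bp1 overlaps Tubgcp4 on the opposite strand, by 2130 exonic bases, and its counts are uncertain without the strand setting. Tubgcp4 was at 37.4 ± 4.88 CPM in 2i alone and 36 ± 6.79 CPM at 50 µM, a log2 fold change of −0.05 ± 0.14. In 2i against primed cells Tubgcp4 was called higher (0.55 ± 0.14, edgeR adjusted p = 0.00425), and the rise of Trp53bp1 there (0.22 with the replicate block, adjusted p = 0.0237) is uncertain for the same reason. The partners of 53BP1 were not called. Rif1 was at 844 ± 138 CPM in 2i alone and 855 ± 64.1 CPM at 50 µM. Mad2l2, a subunit of shieldin and of DNA polymerase zeta, was at 24.5 ± 3.76 and 26.3 ± 0.927 CPM.

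Lig3 (ENSMUSG00000020697, chr11:82781108-82804274) encodes ligase 3, which seals single-strand breaks and joins ends in the alternative pathway. It measured 73.7, 81 and 82.1 CPM in 2i alone, 56, 65.7 and 61.2 CPM at 25 µM and 47.9, 61.8 and 58.9 CPM at 50 µM. The libraries at both doses were below all libraries of 2i alone, and replicate 1 was the lowest in each group. Its log2 fold change at 50 µM was −0.49 ± 0.11 (1.4-fold lower, edgeR adjusted p = 0.00344). Lig3 overlaps Rffl on the opposite strand, by 1826 exonic bases, and its counts are uncertain without the strand setting. Rffl was at 12.7 ± 1.81 CPM in 2i alone and 16.3 ± 1.22 CPM at 50 µM, a log2 fold change of 0.37 ± 0.17 (edgeR adjusted p = 0.166). Parp1, the sensor of single-strand breaks that acts with ligase 3, was at 557 ± 6.81 CPM in 2i alone and 608 ± 41.1 CPM at 50 µM and was not called. Polq, which encodes DNA polymerase theta of the alternative pathway, was at 9.32 ± 1.57 and 11.4 ± 0.785 CPM, with a log2 fold change of 0.29 ± 0.18 (edgeR adjusted p = 0.293).

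Dclre1c measured 3.17, 3.28 and 4.05 CPM at 50 µM, beside 7.98, 6.78 and 5.32 CPM in 2i alone. All 3 libraries at 50 µM lay within the range of the primed libraries. On the log2 scale the difference was −0.93 ± 0.29 (1.91-fold lower, edgeR adjusted p = 0.0337). The call was lost without 2i replicate 1 (adjusted p = 0.0994), 2i replicate 2 (0.0846), 50 µM replicate 1 (0.0843) or 50 µM replicate 2 (0.097), and without all libraries numbered 1 (0.109). Dclre1c shares 357 exonic bases with Suv39h2 on the opposite strand, which differed by 0.02 ± 0.12 at 50 µM. No other gene of classical end joining was called at 50 µM. Lig4, whose product seals the ends, was at 36.8 ± 2.47 CPM in 2i alone, 30.9 ± 5.93 CPM at 25 µM and 30.8 ± 4.69 CPM at 50 µM, and its libraries overlapped. Its log2 fold change at 50 µM was −0.26 ± 0.14 (edgeR adjusted p = 0.217), and −0.42 (adjusted p = 0.0468) without the libraries numbered 1. Prkdc, which encodes the catalytic subunit of DNA-PK, was at 13.5 ± 0.851 CPM in primed cells, 15 ± 1.73 CPM in 2i, 13.7 ± 2.15 CPM at 25 µM and 15.4 ± 3.27 CPM at 50 µM.

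The sequences just before the starts of 5 of the 7 genes that kept a call in every alternative fit are shown to let their promoters be compared. They are the 250 bases before the start in the RefSeq table of GRCm38.p6, which was matched for 30 of the 39 genes. Sequences of H2afx and Rbbp8, the other two of the 7, and of Exo1 were not analysed here. They are written 5′ to 3′ on the strand of the gene, and capitals mark matches to the searched motifs. Rad54l and Gen1 rose at 50 µM, Trp53bp1 and Lig3 fell at 50 µM, and Rnf8 rose in 2i.
Rad54l (chr4:116123691-116123940, minus strand): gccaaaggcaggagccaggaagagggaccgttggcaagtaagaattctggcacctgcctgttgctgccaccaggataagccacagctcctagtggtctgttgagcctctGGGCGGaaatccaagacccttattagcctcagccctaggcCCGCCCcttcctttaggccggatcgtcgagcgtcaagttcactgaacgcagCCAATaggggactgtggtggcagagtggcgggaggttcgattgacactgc
Gen1 (chr12:11265808-11266057, minus strand): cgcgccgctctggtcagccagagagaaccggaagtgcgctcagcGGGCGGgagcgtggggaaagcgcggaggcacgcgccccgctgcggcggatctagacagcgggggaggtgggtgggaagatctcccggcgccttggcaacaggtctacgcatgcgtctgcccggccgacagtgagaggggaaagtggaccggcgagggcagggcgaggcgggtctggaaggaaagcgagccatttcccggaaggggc
Trp53bp1 (chr2:121271408-121271657, minus strand): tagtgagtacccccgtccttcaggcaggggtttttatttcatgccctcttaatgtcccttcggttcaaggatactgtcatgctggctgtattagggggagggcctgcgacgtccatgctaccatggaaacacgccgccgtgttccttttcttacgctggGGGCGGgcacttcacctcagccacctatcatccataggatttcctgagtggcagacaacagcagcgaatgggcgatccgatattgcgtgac
Lig3 (chr11:82780859-82781108, plus strand): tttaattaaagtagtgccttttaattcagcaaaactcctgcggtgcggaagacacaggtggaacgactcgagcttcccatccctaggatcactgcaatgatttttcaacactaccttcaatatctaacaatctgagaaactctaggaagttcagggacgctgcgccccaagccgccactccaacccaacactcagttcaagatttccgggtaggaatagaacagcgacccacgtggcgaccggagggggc
Rnf8 (chr17:29614539-29614788, plus strand): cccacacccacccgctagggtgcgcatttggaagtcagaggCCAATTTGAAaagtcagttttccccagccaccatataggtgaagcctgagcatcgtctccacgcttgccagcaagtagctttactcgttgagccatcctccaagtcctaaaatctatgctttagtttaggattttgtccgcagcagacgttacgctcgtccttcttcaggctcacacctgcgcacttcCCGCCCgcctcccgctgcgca
The motifs were searched on both strands. They were the E2F site in the forms TTTCCCGC, TTTGGCGC, TTTCGCGC and TTTGCCGC, the cell cycle element CHR (TTTGAA), the CCAAT box (CCAAT) and the GC box (GGGCGG). None of the 5 sequences held an E2F match. Rad54l held 2 GC boxes and 1 CCAAT box, Gen1 and Trp53bp1 each held 1 GC box, and Lig3 held no match. Rnf8 held a GC box and a CCAAT box that overlaps a CHR match. Of the 30 genes, 4 (13.3%) held an E2F match, beside 2.16% of the 27025 genes in the table. These were Bard1, Brca2, Mdc1 and Xrcc6. None of them is among the 8 searched genes of those called at 50 µM by the main fit. With the replicate block, Bard1 and Mdc1 were called higher at 50 µM (edgeR adjusted p = 0.0176 and 0.0213). Whether E2F matches go with the calls was not tested. GC boxes were found in 19 of 30 genes (63.3%, beside 35.4%), CCAAT boxes in 13 (43.3%, beside 37.5%) and CHR matches in 3 (10%, beside 18.3%). The 27025 genes were not limited to those that passed the low-count filter, whereas the 30 genes all passed it, so the shares compare unlike sets. A match is a run of letters in this window and was not tested as a site of binding.

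Between the doses, 0 of the 39 genes were called by edgeR and 0 by DESeq2, and at an unadjusted p below 0.05 there were 2 higher and 2 lower at 50 than at 25 µM. The median log2 fold change of the 39 genes was 0.04, beside 0.01 for all genes. With the replicate block 2 genes were called (5.13%), beside 4.1% of all genes. H2afx was at 299 ± 53.1 CPM for 25 µM and 364 ± 40.7 CPM for 50 µM, and its libraries overlapped, while each library at 50 µM was above the one of the same number at 25 µM. Its log2 fold change was 0.28 ± 0.12 (edgeR adjusted p = 0.307, and 0.00932 with the block). Trp53bp1 was at 83.5 ± 8.5 CPM for 25 µM and 62.5 ± 8.45 CPM for 50 µM, and its libraries did not overlap. The difference in log2 was −0.41 ± 0.11 (edgeR adjusted p = 0.0825, and 0.00174 with the block). Both were also called without 25 µM replicate 1, at adjusted p = 0.0494 for H2afx and 0.038 for Trp53bp1.

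Further members, called in no comparison by the fit of all 12 libraries without the block, are given mainly by their group means. Brca1, the mediator of recombination that works with BARD1, was at 54.5 ± 3.57 CPM in primed cells, 61.3 ± 4.48 CPM in 2i, 64.2 ± 2.1 CPM at 25 µM and 64 ± 6.59 CPM at 50 µM. Its groups overlapped in all 4 comparisons. Brca2, a mediator of recombination, was at 64.3 ± 9.24, 76.2 ± 10.7, 81.8 ± 13.4 and 87.4 ± 4.5 CPM in the same order, and its groups overlapped too. Each 2i library of Brca2 was above the primed library of its number, and the log2 fold change in 2i was 0.24 ± 0.13 (edgeR adjusted p = 0.134, and 0.0206 with the replicate block). Bard1 was at 57 ± 6.13 CPM in 2i alone and 68.7 ± 5.76 CPM at 50 µM, with a log2 fold change of 0.27 ± 0.10 (edgeR adjusted p = 0.0817, and 0.0176 with the replicate block). Palb2, which bridges BRCA1 and BRCA2, and Rad52, an annealing factor, differed by 0.17 ± 0.13 and 0.34 ± 0.18 at 50 µM and were not called. Atm was at 30.2 ± 7.64 CPM for 25 µM and 27.3 ± 3.48 CPM for 50 µM, with a log2 fold change of −0.24 ± 0.21 at 50 µM. The low levels of Xrcc4, Mus81, Xrcc3 and Nhej1, with 297 to 461 counts in all, went with SEs of 0.21 to 0.34 in the comparisons with 2i. Dclre1c and Rad51b, with similar counts and SEs of 0.22 to 0.29, were called at differences of 0.67 or more in size.

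Other break repair genes outside the set, 59 listed and 56 tested, were counted in the same way. In 2i against primed cells 10 were higher and 9 lower (33.9%, beside 40.4% of all genes tested). The smallest adjusted p values belonged to Rad50, a subunit of the MRE11 complex (−0.53 ± 0.09), Dna2, a resection nuclease (0.63 ± 0.12), Zswim7, a recombination factor (−0.67 ± 0.14), and Parpbp, an inhibitor of recombination (−0.70 ± 0.15). At 25 µM 0 of the 56 were called by edgeR, beside 0.937% of all genes, and 1 was called lower by DESeq2. At an unadjusted p below 0.05 there were 5 higher and 1 lower, beside 887 higher and 842 lower of all genes. The replicate block called 1 higher and 1 lower, beside 4.74% of all genes. At 50 µM 6 were higher and 1 lower (12.5%, beside 15.1% of all genes). With the replicate block 13 were higher and 1 lower, beside 1599 higher and 1641 lower of all genes (24.5%). The genes called without the block included Ube2n, the conjugating enzyme that works with RNF8 (0.61 ± 0.15), and Rmi2, a partner of the helicase BLM (0.55 ± 0.12). Parp2 (0.36 ± 0.10) and Rad50 (−0.37 ± 0.09) were also called. Between the doses 0 were called by edgeR and by DESeq2, beside 1.16% of all genes by edgeR. At an unadjusted p below 0.05 there were 5 higher and 0 lower, beside 619 higher and 975 lower of all genes. Mre11a, which encodes the target of the inhibitor, was at 61.2 CPM in primed cells, 46.7 CPM after 2i, and 50.6 and 51.5 CPM with the lower and higher dose. It was called lower in 2i (−0.39 ± 0.10, edgeR adjusted p = 0.00431). Rad50 was at 426 CPM in primed cells, 295 CPM after 2i, and 231 and 229 CPM with the lower and higher dose. Nbn, the remaining subunit, was at 28.5 to 31.1 CPM in all groups and was called in no comparison.

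Many recombination genes are transcribed in S and G2 phase, so genes of the cell cycle and of the p53 response were measured beside them. The 25 cell cycle genes span replication licensing, entry to S phase, S phase, G2 and M phase. Their sum is thus no measure of S and G2 phase alone. The summed level was 6630 to 6890 CPM in primed cells and 6250 to 6700 CPM in 2i alone. It was 6880 to 7670 CPM with 25 µM and 7040 to 7790 CPM with 50 µM. All libraries with inhibitor were above all libraries of 2i alone. In 2i 4 of the 25 were called higher and 4 lower, at 25 µM 2 higher (Cdt1, 0.50 ± 0.08, and Mcm5, 0.39 ± 0.09), at 50 µM 5 higher and 1 lower, and between the doses 1 lower. These were 32%, 8%, 24% and 4% of the 25 genes, beside 40.4%, 0.937%, 15.1% and 1.16% of all genes tested. With the replicate block, 5 were higher and 7 lower in 2i, and 6 were higher at 25 µM. It called 12 higher and 1 lower at 50 µM, and 1 lower between the doses. Of all genes tested the block called 47.6%, 4.74%, 24.5% and 4.1% in the same order. At 50 µM the licensing factor Cdt1 rose by 0.71 ± 0.08, whereas Ccne1, which encodes cyclin E1, fell (−0.52 ± 0.09). Of 19 tested targets of p53, 7 were higher and 3 lower in 2i, 0 were called at 25 µM (3 higher and 1 lower at an unadjusted p below 0.05, and 1 lower by DESeq2), 2 were higher and 3 lower at 50 µM, and 1 was lower between the doses. The edgeR calls were 52.6%, 0%, 26.3% and 5.26% of the 19 targets, beside 40.4%, 0.937%, 15.1% and 1.16% of all genes tested. With the replicate block, 7 targets were higher and 3 lower in 2i, and 1 was higher and 1 lower at 25 µM. At 50 µM the block called 2 higher and 4 lower, and between the doses 3 lower. The summed level of the p53 targets was 1120 to 1170 CPM in primed libraries, 1410 to 1450 CPM in 2i alone, 1450 to 1530 CPM with 25 µM and 1270 to 1430 CPM with 50 µM. Cdkn1a, which encodes the cell cycle inhibitor p21, rose by 2.00 ± 0.13 in 2i and Gadd45a fell (−2.27 ± 0.15). At 50 µM the smallest adjusted p values belonged to Ddit4 (−1.22 ± 0.12) and Aen (0.71 ± 0.17). The part of the cell cycle in the changes of the break repair genes was not tested.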

How the data were processed

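The values were raw counts per gene, 1 table per library, as the authors deposited them. The submitters' processing notes name FastQC, STAR, DESeq2 1.32.0 and the build GRCm38. How reads were counted (tool, annotation, strand, molecular identifiers) is not stated in the sources used here. The 114 features that are not mouse gene IDs had 2 counts in all and were left out. Groups and replicate numbers come from the labels, and no per-sample column was left out.

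All 12 libraries were fitted at once in R 4.3.3 with the quasi-likelihood test of edgeR 4.0.16 (TMM, filterByExpr, robust dispersion), with Benjamini-Hochberg adjustment over 13230 genes and calls at an adjusted p below 0.05. The SE is the size of the log2 fold change divided by the square root of F. The fit was tested on simulated data. The alternatives were RLE scaling, no low-count filter, DESeq2 1.42.0, only the groups compared, a replicate block, each library left out in turn, and, chosen after seeing the data, no libraries numbered 1.

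Deviations from group means over 8781 genes correlated between libraries of the same number at 0.17 to 0.4 (2i and primed), 0.32 to 0.53 (25 µM and 2i), 0.21 to 0.42 (50 µM and 2i) and 0.25 to 0.49 (50 and 25 µM). For primed and inhibitor libraries, which are not compared here, it was −0.03 to 0.28, and between libraries of different numbers −0.39 to 0.21. Of the 12 libraries, 9 correlated best with their own number in every other group. Since every pair in the comparisons made was above 0.1, the numbers, which come from the labels, were taken to pair the libraries. Only the replicate block used this pairing. The main fit, which gave the calls, and the other alternatives did not. The labels give no reason for the pairing.

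The members, their roles, the other lists, the motifs and the rule for named genes were chosen with earlier results of these data known. Every member called in a comparison is given with its libraries, members that define a branch with their group means, and the rest by ranges; up to 4 called genes with the smallest p were named from the other break repair genes and up to 2 from the remaining lists. A gene that the rule takes is not reported here. Positions and overlaps are from GENCODE M21 on GRCm38, and promoter sequences from RefSeq.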

Additional observations from a re-analysis of the deposited data

How the results depend on the processing

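Of the 18 calls of break repair genes over the 4 comparisons, 7 were kept by all 12 alternatives, 11 were lost by at least 1, and 0 changed direction. In 14 further cases a gene was called by an alternative only. With the replicate block, which uses the pairing by number, the break repair genes called were 14 in 2i against primed, 3 at 25 µM, 12 at 50 µM and 2 between the doses, and over all genes the block called 6294 in 2i against primed (5346 without the block), 627 at 25 µM (124 without the block), 3240 at 50 µM (1994 without the block) and 542 between the doses (153 without the block). The block changed no other call of a break repair gene. Without the low-count filter, all genes called were 268 at 25 µM and 329 between the doses, and break repair genes called were 6 at 50 µM and 1 between the doses (Trp53bp1). DESeq2 called 6 break repair genes at 50 µM. With only the groups compared, 0 were called at 25 µM. Without the libraries numbered 1, 0 were called at 25 µM and 1 between the doses (Trp53bp1), where all genes called were 238. With 1 library left out in turn, break repair genes called ranged from 4 to 8 in 2i (4 without 2i replicate 3), 0 to 1 at 25 µM, 5 to 7 at 50 µM and 0 to 2 between the doses. All genes called then ranged from 4615 to 4991, 29 to 101, 1217 to 1668 and 38 to 203. The cause was not tested. RLE scaling moved the median log2 fold change of all genes by at most 0.02. Single libraries were left out for these genes and the counts over all genes, and not for the other lists. The 3 libraries per group and an SE of 0.08 to 0.34 limit what can be called.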
